A study of Triticum aestivum with 27 samples.

Results

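NAM-A1 (TraesCS6A01G108300, chromosome 6A) and NAM-D1 (TraesCS6D01G096300, chromosome 6D) were followed in wheat spikes kept under sprouting conditions. Both genes were taken from the table by identifier, which gave 2 of 153699 genes. That rule uses no measured value, but the genes were chosen with earlier results of these data known. The spikes came from 3 varieties of Triticum aestivum, cut at the wax ripe stage and kept wet and warm for 0, 48 or 96 h before freezing. Baipimai is white-grained and resistant to pre-harvest sprouting (PHS), Shengsimai is red-grained and highly resistant, and Zhoumai18 is white-grained and highly susceptible. All spikes were soaked in water first, and the 0 h spikes were frozen right after it, before the time in the humid chamber. Each of the 9 groups of variety and time had 3 libraries, each from a separate spike, and whole spikes hold grain together with glume, awn and rachis. The number in the library names of Baipimai is that of another white-grained variety in the study's list of varieties, and the deposited label was followed. Library totals ran from 45590141 to 55765523 counts, and replicates of a group differed by more than sampling noise (chi-square per degree of freedom 2.89 to 12.6 over 27 pairs).

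NAM-1 genes encode NAC transcription factors, a plant family named for its shared DNA-binding domain. In wheat the copy on 6B is known from the grain protein locus Gpc-B1, and NAM-1 genes speed up senescence of the flag leaf and the movement of nitrogen, zinc and iron from leaves into the grain. NAM-A1 and NAM-D1 are its copies on the A and D genomes, and their transcripts are best known from leaves after flowering. The copy on 6B was not analysed here. Identifiers were used as deposited, and positions beyond the chromosome are not given.

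Both genes were close to undetected in these spikes. NAM-A1 had 10 counts and NAM-D1 had 31 counts in all 27 libraries together, 41 of 1334072595 counts. In 17 libraries neither gene had a count, 10 libraries had counts of either gene, and 3 had counts of both. FPKM, which scales counts by gene length and library size, reached 0.127 at most for either gene in any library.

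NAM-A1 was counted in 4 of 27 libraries. The Baipimai libraries at 96 h had 2, 4 and 0 counts (0.0311, 0.0608 and 0 FPKM). The Zhoumai18 libraries at 0 h had 0, 2 and 2 counts (0, 0.0306 and 0.0167 FPKM). These 2 groups each held a library at 0 and so overlapped with every other group. All 9 Shengsimai libraries were at 0, and so were all 9 libraries at 48 h, the Baipimai libraries at 0 h and the Zhoumai18 libraries at 96 h.

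NAM-D1 was counted in 9 of 27 libraries. The Zhoumai18 libraries at 0 h had 9, 4 and 2 counts (0.127, 0.0592 and 0.0282 FPKM), and this was the only group of either gene with counts in all 3 libraries. Zhoumai18 had 2, 0 and 0 counts at 48 h and none at 96 h, so its 0 h libraries were level with or above its 48 h libraries and above all 3 of its 96 h libraries. Baipimai had 2, 0 and 0 counts at 0 h, 3, 0 and 0 counts at 48 h, and 0, 2 and 0 counts at 96 h. Shengsimai had no count at 0 h, 4, 0 and 0 counts at 48 h, and 3, 0 and 0 counts at 96 h. Wherever a resistant variety had NAM-D1 counts they lay in 1 library of 3, and the times overlapped at 0.

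**Figure D1:**
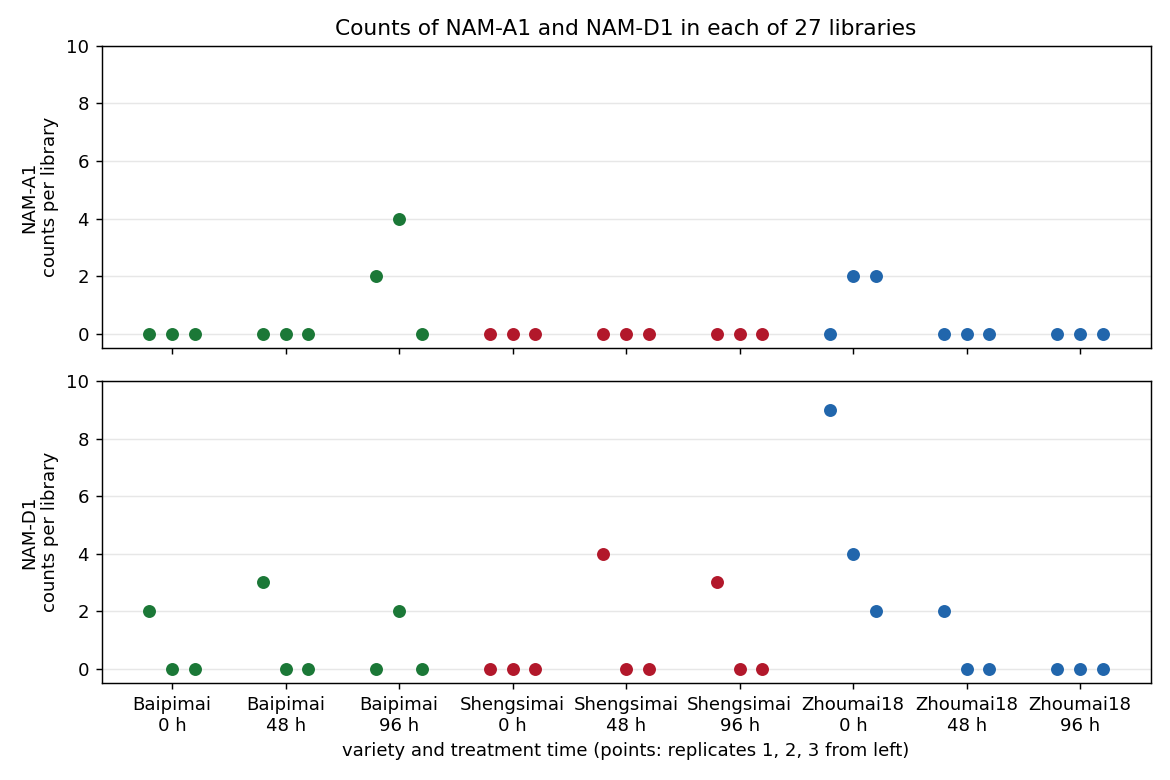
Counts of NAM-A1 (top) and NAM-D1 (bottom) in each library, with 3 points for the 3 replicates of each group of variety and time, coloured by variety. NAM-A1 has points above 0 in Baipimai at 96 h and Zhoumai18 at 0 h, and NAM-D1 has its highest point, 9 counts, in Zhoumai18 at 0 h, the group whose 3 libraries are all above 0.

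Summed over the 3 libraries of a group, NAM-D1 was highest in Zhoumai18 at 0 h, at 0.105 CPM (counts per 1000000 counts of the libraries), with a 95% exact Poisson interval of 0.0588 to 0.173. Next came Shengsimai at 48 h with 0.0251 CPM (0.00684 to 0.0643) and Shengsimai at 96 h with 0.0212 CPM (0.00437 to 0.0619). The intervals of these groups overlapped with that of Zhoumai18 at 0 h, and those of all other groups of NAM-D1 lay below it. Baipimai at 48 h, Baipimai at 96 h, Zhoumai18 at 48 h and Baipimai at 0 h lay between 0.0199 and 0.0136 CPM. These groups and Shengsimai at 48 and 96 h could not be put in order, and each had its counts in 1 library. Shengsimai at 0 h and Zhoumai18 at 96 h were at 0, which allows up to 0.0244 and 0.0238 CPM at the upper bound of that interval. Intervals and limits cover counting error only, with libraries summed, and amplified reads are not independent molecules.

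NAM-A1 reached 0.0426 CPM (0.0156 to 0.0926) in Baipimai at 96 h and 0.028 CPM (0.00764 to 0.0718) in Zhoumai18 at 0 h, and these 2 levels could not be told apart. Each of the other 7 groups was at 0, and the floor of 3 counts in a group lay between 0.0188 and 0.0213 CPM over all groups. For Shengsimai, 0 counts in 9 libraries of 452092506 counts allowed 0.00816 CPM at most. Over all libraries NAM-A1 had 0.0075 CPM (0.00359 to 0.0138) and NAM-D1 had 0.0232 CPM (0.0158 to 0.033). In libraries of whole spikes, fewer cells of a type and less RNA per cell cannot be told apart.

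**Figure D2:**
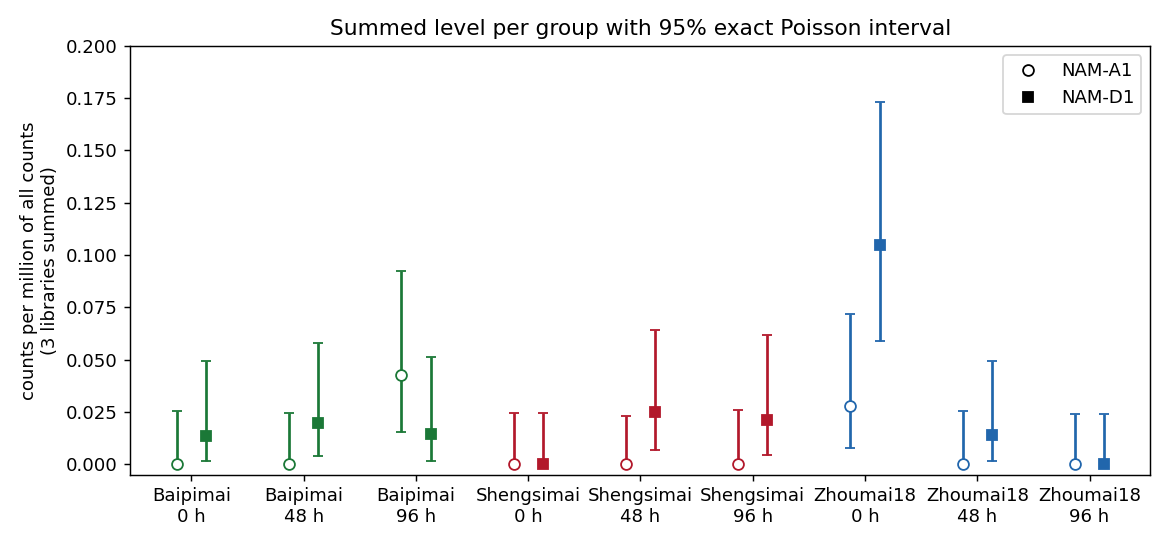
Level of NAM-A1 (open circles) and NAM-D1 (filled squares) in CPM, summed over the 3 libraries of each group, with bars for the 95% exact Poisson interval, which covers counting error only. NAM-D1 in Zhoumai18 at 0 h stands highest at 0.105 CPM, and the bars of all groups at 0 reach up to between 0.0231 and 0.026 CPM.

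No library had exactly 1 count of either gene, and the smallest value above 0 was 2. In the whole table the value 2 was also more frequent than 1, with 114556 entries against 39190. Whether 1 count stands for a read or for a fragment is not given in the sources used here. If both reads of a pair were counted, the Poisson intervals are too narrow.

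The place of both genes in the transcriptome was low. Of 110790 annotated wheat gene identifiers, 17986 had no count in any library, and 24.7% had 10 counts or fewer, the total of NAM-A1. For NAM-D1, 30.0% of identifiers had its 31 counts or fewer. On their own chromosomes these shares were 25.1% of 4217 identifiers on 6A and 27.5% of 4081 identifiers on 6D. The mean over libraries was 0.00515 FPKM for NAM-A1 and 0.0153 FPKM for NAM-D1, and the median of genes with a count was 0.39 FPKM.

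**Figure D3:**
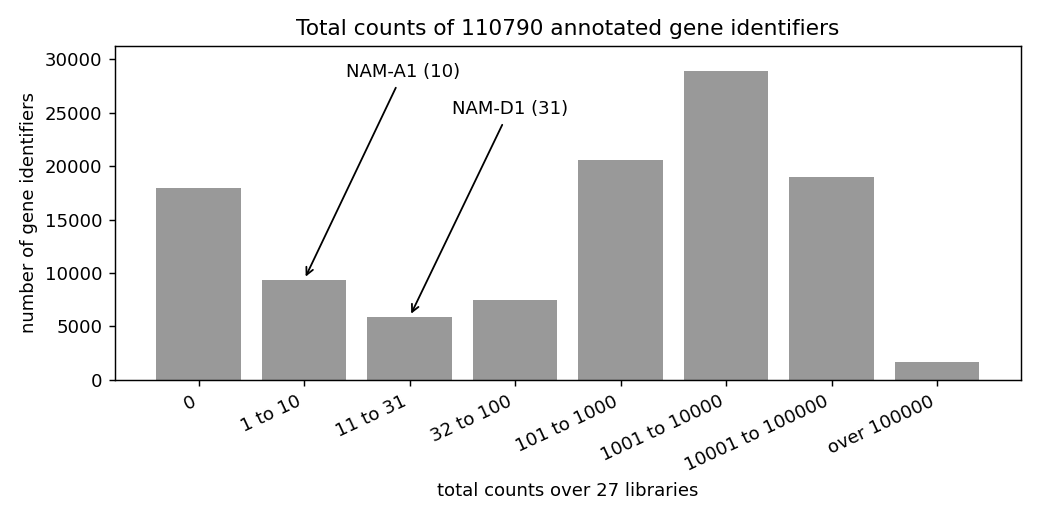
Number of annotated gene identifiers (vertical axis) by total counts over 27 libraries (horizontal axis, in classes), with arrows at the classes of NAM-A1 (10 counts) and NAM-D1 (31 counts). Both genes lie in the classes next to the 17986 identifiers at 0, which hold 9353 and 5885 identifiers.

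The first comparison asked whether the resistant varieties differed from the susceptible variety, and from each other, at each time. Neither gene passed the threshold between varieties in edgeR's quasi-likelihood test, fitted over 135713 genes with a count, at an adjusted p of 0.05. That was 0 of 18 comparisons, and 1 of 18 had an unadjusted p under the same value. In some of these NAM-A1 was at 0 in both groups, so that no call was possible. Over all genes, the share called between Baipimai and Zhoumai18 was 32.1%, 34% and 57.4% at 0, 48 and 96 h, between Shengsimai and Zhoumai18 37%, 39.6% and 57.6%, and between Baipimai and Shengsimai 26.9%, 37.9% and 39.3%. The lowest adjusted p was that of NAM-D1 for Shengsimai against Zhoumai18 at 0 h, 0.0671, with 0, 0 and 0 counts against 9, 4 and 2. NAM-D1 in these Zhoumai18 libraries was 5.29-fold a floor of 3 counts over the Shengsimai group. Such a fold over the floor leaves out the counting error of the higher group and is not a lower bound. The libraries of the 2 groups did not overlap, and the call turned on the settings, with an adjusted p of 0.0461 on library totals, 0.0458 with the 2 groups alone and 0.0657 to 0.157 when 1 library was left out.

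Against Baipimai at 0 h, NAM-D1 in Zhoumai18 was 7.7-fold higher, with a counting interval of 1.79 to 69.4 (15 against 2 counts, adjusted p = 0.321 by edgeR). NAM-A1 in Baipimai at 96 h was 2.2-fold the floor in Zhoumai18 (6 against 0 counts, adjusted p = 0.088 by edgeR). It was 2.01-fold the floor in Shengsimai (adjusted p = 0.142 by edgeR). Limma on log2(FPKM + 1) called 4 of the 18 comparisons, and DESeq2 gave no adjusted p for either gene. At 48 h NAM-A1 was at 0 in all varieties, and NAM-D1 had an adjusted p of 0.858 for Shengsimai against Zhoumai18 and of 1 for both other pairs.

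The second comparison asked whether either gene changed during the treatment within a variety. NAM-D1 fell from 0 to 96 h in Zhoumai18 (adjusted p = 0.0233 by edgeR), from 9, 4 and 2 counts to 0 in all 3 libraries. The level at 0 h was 5.42-fold a floor of 3 counts over the 96 h group. It was the single call among 18 comparisons, and those of NAM-A1 between groups at 0 could not give a call. Of all genes 46.9% were called from 0 to 48 h, 48.6% from 48 to 96 h and 58.5% from 0 to 96 h in Zhoumai18. For the same steps Baipimai had 45.7%, 30.5% and 44.1% of genes called, and Shengsimai 45.8%, 11.2% and 46.4%; neither NAM gene was among them. The call was lost without Zhoumai18 0 h replicate 1 (adjusted p = 0.0656) and without Zhoumai18 96 h replicate 1 (0.0653), 2 (0.0628) or 3 (0.0615).

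In Zhoumai18 the counts at 48 h already lay near those at 96 h. NAM-D1 was 7.67-fold higher at 0 h than at 48 h (counting interval 1.78 to 69.2, 15 against 2 counts), with an adjusted p of 0.182 by edgeR. NAM-A1 in Zhoumai18 had 4 counts at 0 h and none later, 1.36-fold and 1.45-fold the floor at 48 and 96 h (adjusted p = 0.162 and 0.124 by edgeR). Its counting interval at 0 h overlapped with those at both later times. In Baipimai NAM-A1 had 0 counts at 0 and 48 h and 6 at 96 h, 2.08-fold and 2.14-fold the floor at these times (adjusted p = 0.161 and 0.145 by edgeR). NAM-D1 had an adjusted p of 1 for every pair of times in Baipimai and of 0.281 to 1 in Shengsimai.

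The third comparison asked whether the change with time differed between varieties. For NAM-A1 the change from 0 to 96 h differed between Baipimai and Zhoumai18 (adjusted p = 0.045 by edgeR), with 0 and 6 counts at 0 and 96 h in Baipimai and 4 and 0 counts in Zhoumai18. Over all genes 39.7% were called in this contrast. The call was lost without any 1 of the 3 Baipimai 0 h libraries (adjusted p = 0.0705, 0.074 and 0.0732 for replicates 1, 2 and 3), without Zhoumai18 0 h replicate 2 (0.0794) or 3 (0.0792), without Baipimai 96 h replicate 1 (0.0616) or 2 (0.0994), and without Zhoumai18 96 h replicate 1 (0.0743), 2 (0.0733) or 3 (0.0722). With the replicate number as a block the adjusted p was 0.111.

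For NAM-D1 the change from 0 to 96 h differed between Shengsimai and Zhoumai18 (adjusted p = 0.0292 by edgeR), with 0 and 3 counts in Shengsimai and 15 and 0 counts in Zhoumai18. Over all genes 39.3% were called in this contrast. All 3 counts of Shengsimai at 96 h came from replicate 1, without which the adjusted p was 1. It was 0.0555 without Zhoumai18 0 h replicate 1 and 0.0512 without Zhoumai18 96 h replicate 1. These were the 2 calls among 18 comparisons of this kind. Those of NAM-A1 with counts in a single compared group, or in none, could not give a call. For the changes from 0 to 48 h, from 48 to 96 h and from 0 to 96 h, the share of all genes called was 24.6%, 44.4% and 39.7% for Baipimai against Zhoumai18, 28.3%, 31.9% and 39.3% for Shengsimai against Zhoumai18, and 22.5%, 24.5% and 26.1% for Baipimai against Shengsimai. Between Baipimai and Zhoumai18, NAM-D1 had an adjusted p of 0.15.

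The ratio of NAM-A1 to NAM-D1 could be formed in the 3 libraries with counts of both. It was 0.516 and 0.591 in replicates 2 and 3 of Zhoumai18 at 0 h and 2.0 in replicate 2 of Baipimai at 96 h, on the FPKM scale. The ratio of counts was 0.5, 1.0 and 2.0 in the same libraries, from 2 to 4 counts of each gene, so by counts the pair was level in replicate 3 of Zhoumai18. A permutation test between varieties was not possible with 3 ratios. FPKM did not follow counts exactly, since 2 counts of NAM-A1 gave 0.0306 FPKM in one Zhoumai18 library and 0.0167 in the other. Reads that fit both near-identical copies may be split between them by the counting, so single-copy values are uncertain.

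Some other NAC genes were measured well above NAM-A1 and NAM-D1 in the same libraries, and others were as low in single groups. The symbol column of the table held 10 genes with a NAC symbol, of which 4 reached 1 FPKM in 3 libraries and were tested. From 0 to 96 h, 2 rose and 2 fell in Baipimai, 1 rose and 2 fell in Shengsimai, and 1 rose and 2 fell in Zhoumai18. Of all 68658 genes tested in this way, 70.8%, 72.7% and 82.2% were called. The median log2 fold change of the 4 genes was 1.37, -0.80 and -1.96, against 0.11, 0.08 and 0.12 over all tested genes. In Baipimai NAC2, NAC2D, NAC4 and NAC7 changed by -2.11, -2.45, 4.85 and 7.6, so the median was near none of them. NAC7 rose in all 3 varieties (7.6, 7.73 and 10.96) and was the only riser in Shengsimai and Zhoumai18. It was at 0 FPKM in every 0 h group, so the sizes of these changes are not measured folds. At 96 h NAC7 was at 0.477, 0.543 and 5.56 FPKM in Baipimai, Shengsimai and Zhoumai18. It passed the filter through Zhoumai18 alone, so its rise there was in part fixed by the filter.

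NAC2 (TraesCS5A01G468300), named by the file as a NAC gene on 5A, had a mean of 116 FPKM over the libraries. It fell in Zhoumai18 from 279 ± 31.3 FPKM at 0 h to 20.2 ± 1.32 FPKM at 96 h (SD, n = 3), a log2 fold change of -4.04 (adjusted p = 5.99e-26 by edgeR). Its log2 fold change was -2.11 in Baipimai and -2.62 in Shengsimai. NAC2D (TraesCS5D01G481200) on 5D had a mean of 97.6 FPKM and log2 fold changes of -2.45, -1.92 and -3.67. Both fell in all 3 varieties, and the 6 NAC-named genes that were not tested had means of 0.0267 to 0.402 FPKM, each above the means of both NAM genes over the libraries. In Zhoumai18 at 0 h, however, NAM-D1 (0.0714 FPKM) lay above NAC1 on 3A (0.00907 FPKM), NAC5 (0.0102 FPKM), and NAC1 on 3D and NAC7, which were at 0. NAC5 had 48 counts in all libraries, near the 31 of NAM-D1.

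**Figure D4:**
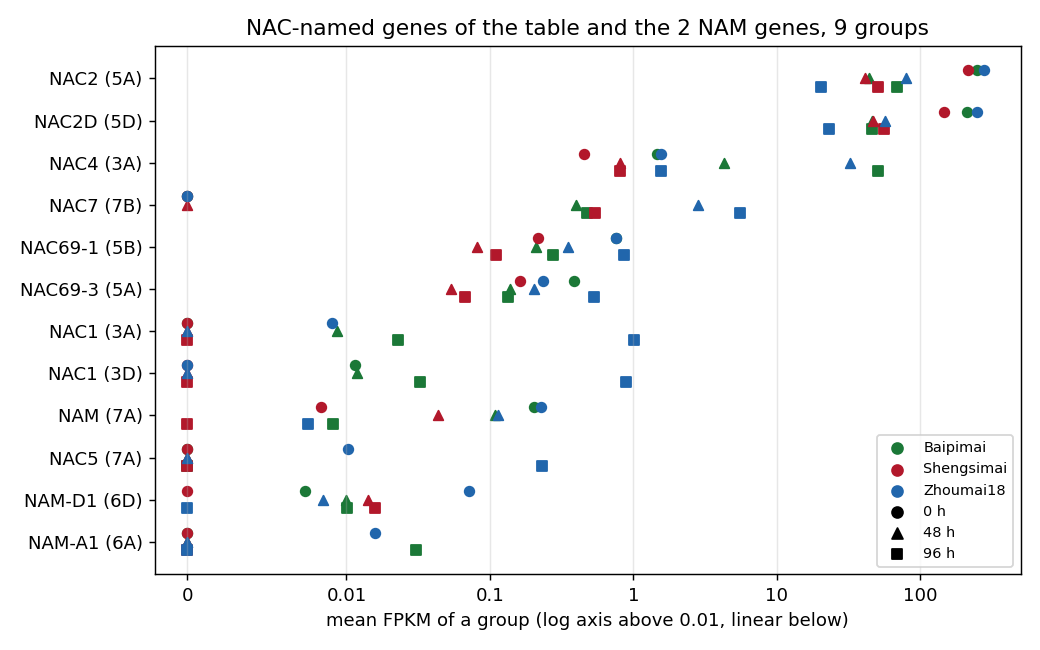
Mean FPKM of each group (horizontal axis, log above 0.01 and linear below) for the 10 genes with a NAC symbol and for NAM-A1 and NAM-D1, ordered by mean, with colours for varieties and symbols for times; points at 0 overlap. NAC2 and NAC2D stand at 20.2 FPKM or more in every group, and the NAM genes take the lowest places by the mean over groups.

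Genes of nutrient remobilization and leaf senescence, a process in which NAM-1 genes act, were taken by symbol from the same column. Of 13 such genes 7 were tested. From 0 to 96 h 2 rose and 5 fell in Baipimai, 0 rose and 5 fell in Shengsimai, and 4 rose and 3 fell in Zhoumai18. Both risers in Baipimai were TaAmt1;1 genes, on 6B and 6D, which reached only 0.106 and 0.118 FPKM there at 96 h. They passed the filter of 1 FPKM in 3 libraries through Zhoumai18 at 96 h alone (1.21 and 1.86 FPKM). Their rise in Zhoumai18 was thus fixed in advance by the filter. Of all tested genes 70.8%, 72.7% and 82.2% were called in the same order. The median log2 fold change was -1.58, -1.29 and 0.58, against 0.11, 0.08 and 0.12 over all tested genes. LLS1 (TraesCS4B01G311100), whose name is that of pheophorbide a oxygenase in chlorophyll breakdown, fell in all 3 varieties (log2 fold change -1.58, -4.50 and -3.09). ATG8 on 2D (TraesCS2D01G229900), an autophagy protein, fell as well (-2.14, -1.59 and -0.79). Its copy on 2A (TraesCS2A01G224000), named after its values were seen, fell in Baipimai and Shengsimai (-1.79 and -0.88) and rose in Zhoumai18 (0.58, adjusted p = 5.33e-05 by edgeR). ASN1 (TraesCS5B01G152600), also named after its values were seen, fell in Baipimai and Shengsimai (-0.93 and -1.29). In Zhoumai18 ASN1 rose from 5.14 to 28.4 FPKM (2.2, adjusted p = 6.16e-19 by edgeR). NAM-D1 and LLS1 both had their highest group mean in Zhoumai18 at 0 h, 0.0714 and 19.0 FPKM. LLS1 was near that level at 0 h in Baipimai (16.4 FPKM) and Shengsimai (13.4 FPKM) too, where NAM-D1 was at 0.00739 and 0 FPKM.

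Tissue markers moved with the groups in which the NAM genes were compared. The label gives whole spikes, and of 5 green tissue genes 4 were tested. Their summed level was 48.0 to 49.5 FPKM in Zhoumai18 at 96 h and at most 0.825 FPKM in every other library. From 0 to 96 h all 4 rose in Zhoumai18, where 82.2% of all tested genes were called. They passed the filter of 1 FPKM in 3 libraries through Zhoumai18 at 96 h alone, so the filter had fixed this count in advance. RcaB, a Rubisco activase gene that marks green leaf tissue, had 2 counts in all libraries. Neither NAM gene had a count in Zhoumai18 at 96 h, the group with the highest green tissue sum.

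The embryo and aleurone sum was highest in Shengsimai at 0 h (31100 to 35200 FPKM) and lowest in Zhoumai18 at 96 h (1930 to 2200 FPKM), and both groups had no count of either NAM gene. It was 12800 to 13900 FPKM in Zhoumai18 at 0 h and 20000 to 21100 FPKM in Baipimai at 96 h, the groups with NAM-A1 counts. This sum was carried by the Glo-3A pair, storage globulin genes (15700 and 17100 FPKM in Shengsimai at 0 h). Other members took another course, since PER1 was lowest in Shengsimai at 0 h (90.4 FPKM) and Vp-1A, a seed dormancy regulator, was highest in Baipimai at 0 h (27.7 FPKM). The sum of 4 endosperm genes ran from 0.259 to 56.3 FPKM and was 30.9 to 56.3 FPKM in Zhoumai18 at 0 h, overlapping with 23.8 to 33.6 FPKM at 48 h. It was carried by the glutenin gene GluD3-3, and avnla and avnlb were higher at 48 h (9.28 and 6.25 FPKM) than at 0 h (8.26 and 5.74 FPKM) as means in Zhoumai18. The alpha-amylase gene AMY4, the only gene listed by symbol for germinating grain, rose from 0 to 96 h in all 3 varieties. Its log2 fold change was 0.58 in Baipimai, 0.54 in Shengsimai and 1.34 in Zhoumai18. In Zhoumai18, where NAM-D1 fell, AMY4 went from 2.93 to 8.86 FPKM. At 48 h it was at 6.75 FPKM in Baipimai, 4.71 in Shengsimai and 6.12 in Zhoumai18, so it did not separate the susceptible variety then. The part of these tissues in the NAM levels was not tested.

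The NAM genes were set beside the nearest genes that reached 1 FPKM in 3 libraries, so the level of these neighbours was in part fixed by that filter. The 5 tested genes on each side of NAM-A1, in the order of identifiers, had means of 1.04 to 20.2 FPKM and totals of 726 to 43402 counts. Of the 17 identifiers in that stretch, 7 were not tested. Around NAM-D1 the 10 tested genes had means of 0.939 to 25.5 FPKM and totals of 1976 to 48622 counts, with 20 of 30 identifiers not tested. From 0 to 96 h in Zhoumai18, 3 rose and 4 fell around NAM-A1, and 4 rose and 4 fell around NAM-D1. In Baipimai 4 rose and 5 fell around NAM-A1 and 3 rose and 4 fell around NAM-D1, and in Shengsimai the counts were 3 and 6, and 2 and 4. Over all genes tested 82.2% were called in Zhoumai18, 70.8% in Baipimai and 72.7% in Shengsimai.

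**Figure D5:**
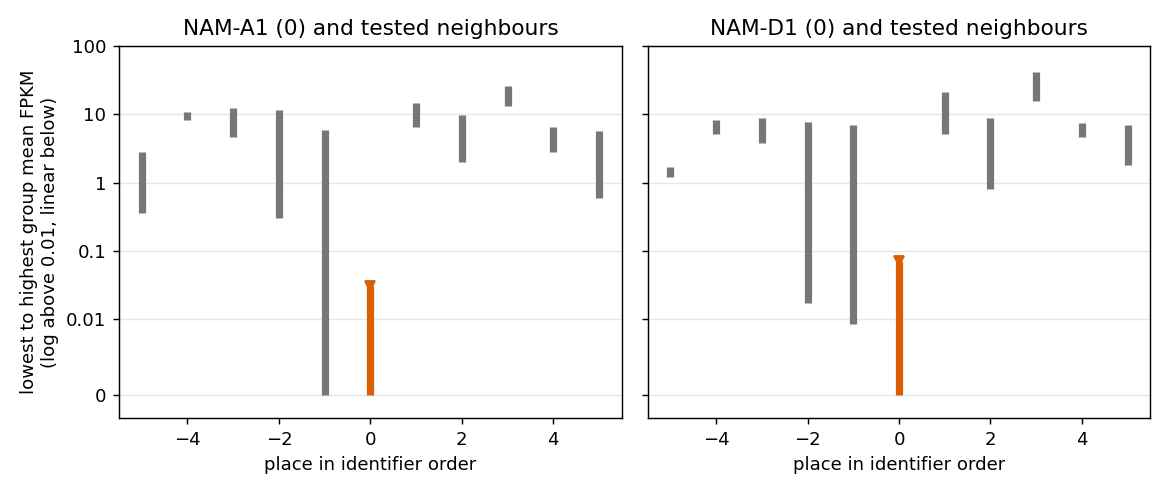
Lowest to highest group mean FPKM (vertical bars, log above 0.01 and linear below) of NAM-A1 (left) and NAM-D1 (right) at place 0 and of the 5 tested genes on each side in identifier order. The NAM genes reach at most 0.0306 and 0.0714 FPKM as group means, and the neighbouring genes reach between 1.69 and 42.1 FPKM.

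The genes with a pattern most like those of the NAM genes were sought by Pearson correlation of log2(CPM + 1) over the 9 group means, given as a description since all genes share the libraries and the NAM counts are sparse. For NAM-A1 these were TraesCS1A01G398300 (r = 0.95, and 0.52 over 27 libraries, 2446 counts) and TraesCS6B01G420300 (r = 0.94 and 0.69, 511 counts). For NAM-D1 they included TraesCS3B01G018800 (r = 0.99, and 0.72 over 27 libraries), with 8778 of its 25507 counts in Zhoumai18 at 0 h. The correlations over libraries were lower than those over group means for all of them.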

How the data were processed

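RNA-seq of 27 spike libraries was analysed as deposited. The authors deposited raw counts per gene and FPKM values in one table, made by a sequencing company from polyA-selected libraries; aligner, counter and genome build are not given in the sources used here. There was 1 malformed line, which was left out, and a short table of resistance classes was not used. Samples were grouped by the labels. Counts were tested with edgeR 4.0.16 (R 4.3.3), TMM scaling, 1 fit of 27 libraries with 9 group means, and Benjamini-Hochberg adjustment within each comparison (threshold 0.05). Neither NAM gene reached 1 FPKM in 3 libraries, so both were tested among all 135713 genes with a count; other genes were tested among the 68658 that did. limma 3.58.1, DESeq2 1.42.0 and other alternatives are given at the end. The edgeR step was tested on simulated counts, with changes planted only in genes with far more counts than the NAM genes. That test does not show how well a change is found at their level.

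The members and lists were chosen with earlier results of these data known. Lists planned on an annotation matched 0 identifiers and were replaced by lists on the symbols of the table, chosen after that column was seen. From each list, up to 2 genes in each direction were named if called alike in all 3 varieties with a group mean of at least 10 FPKM, taking the largest changes, and so were the genes most like each member. Tissue marker genes, NAC1, NAC4, NAC5 and NAC7 were named after their values were seen. Replicate numbers were checked as pairs by the correlation of deviations from group means. The median was 0.00469 (-0.067 to 0.177) for libraries of the same number and 0.000765 (-0.131 to 0.0768) for those of other numbers. Libraries were therefore not treated as paired, but this check cannot exclude a batch by number.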

Additional observations from a re-analysis of the deposited data

Results flagged for a closer look

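For NAM-A1 the change from 0 to 96 h differed between Baipimai and Zhoumai18 by edgeR's test of the difference (adjusted p = 0.045), with counts in 2 of 3 Baipimai libraries at 96 h and in 2 of 3 Zhoumai18 libraries at 0 h and none at the other end of either course. For NAM-D1 the change from 0 to 96 h differed between Shengsimai and Zhoumai18 by the same test (adjusted p = 0.0292), with counts in 1 of 3 Shengsimai libraries at 96 h and in all 3 Zhoumai18 libraries at 0 h.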

How the results depend on the processing

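The comparisons between varieties, with 0 calls of 18 by edgeR, gave 1 on library totals without TMM, 1 with the compared groups alone, 1 in the filtered table with both genes kept (an alternative chosen after seeing the data) and 4 by limma on either log2(FPKM + 1) or log2(FPKM + 0.1); leaving out each library gave 0 throughout. Those between times, with 1 call, gave 2 in the filtered table, 4 by limma at either pseudocount and 0 to 1 when a library was left out. Those of change between varieties, with 2 calls, gave 4 by limma at either pseudocount and 0 to 2 when a library was left out. The adjusted p for NAM-D1 from 0 to 96 h in Zhoumai18 then ranged from 0.0229 to 0.0656, that for NAM-A1 between Baipimai and Zhoumai18 from 0.036 to 0.0994, and that for NAM-D1 between Shengsimai and Zhoumai18 from 0.0239 to 1. The median NAM-A1 to NAM-D1 ratio ranged from 0.553 to 1.3 around 0.591. The cause of these differences was not tested.

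With the replicate number as a block, the calls on change between varieties went from 2 to 1 (NAM-A1 between Baipimai and Zhoumai18, adjusted p = 0.111 by edgeR). No other call changed, and whether the numbers mark a batch is not known. DESeq2 gave no adjusted p for either gene in any of the 18 comparisons of each kind. The fit without a filter is the one reported, since neither gene passed the filter. The 29 calls on senescence lists were the same in number on library totals and by DESeq2. These tests rest on 10 counts of NAM-A1 and 31 of NAM-D1.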

Other observations

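Of the 31 counts of NAM-D1, 23 lay in libraries with replicate number 1, and 6 of the 9 libraries with NAM-D1 counts carried that number. The 10 counts of NAM-A1 were 2, 6 and 2 in libraries of replicate numbers 1, 2 and 3. This split was looked at after the values were seen and was not tested.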
